A study of Mus musculus with 72 samples.

Results

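Prox1, C1ql2, Plk5, Trpc6, Dock10, Dsp, Lct and Tdo2 are 8 genes used as markers of granule cells, the principal neurons of the dentate gyrus, and their messenger RNA was followed across the mouse hippocampus in 72 bulk libraries. The 8 symbols were matched to Ensembl identifiers in the deposited table of read counts, where each matched 1 of 55401 genes. Tissue came from male mice and was either dorsal (DH) or ventral (VH) hippocampus. The mice were labelled with 1 of 2 inbred substrains, C57BL/6NJ (6NJ) or C57BL/6J (6J). They were fear conditioned with a shock and a cue, were given the cue alone, or came straight from the home cage, and the tissue of both cue groups was taken 30 min afterwards. Each of the 12 combinations of region, strain label and condition held 6 libraries.

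Granule cells send mossy fibres to mossy cells and to CA3 pyramidal neurons, and new ones are added to the adult dentate gyrus. Prox1 is a homeobox transcription factor that granule cells need to acquire and keep their identity. C1ql2 is a secreted protein of the C1q family that organises mossy fibre synapses, and Plk5 is a member of the polo-like kinase family that is expressed in brain. Trpc6 is a cation channel of the canonical TRP family, and Dock10 is a guanine nucleotide exchange factor of the DOCK family. Dsp (desmoplakin, a desmosomal plaque protein), Lct (lactase, an enzyme of the intestinal brush border) and Tdo2 (tryptophan 2,3-dioxygenase, known mainly from liver) are best known from other organs.

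Library totals were 30330382 to 56258370 gene counts, and the lowest count of any of the 8 genes in any library was 119, for Tdo2. Levels are counts per 1000000 (CPM) of the TMM-scaled library total, and all differences are log2 fold changes. Nnt and Gabra2, known to differ between the substrains, went against the strain labels. Nnt carries a deletion in 6J mice, yet it averaged 20.3 ± 1.15 CPM under the 6NJ label and 38.0 ± 1.87 CPM under the 6J label (SD, n = 36 each), with no overlap. Gabra2, a GABA-A receptor subunit known for low expression in 6J mice, averaged 120.1 ± 15.7 CPM under the 6NJ label and 267 ± 35.4 CPM under the 6J label, again with no overlap. Every strain direction is therefore between the labels. Every library bears a code such as 40A, which 1 DH and 1 VH library share, and a code number (12 in all) occurs under a single strain label and condition. Whether libraries of 1 group are separate mice is not stated in the labels, so the p-values reflect the spread between libraries, which may be technical. Markers of dentate granule, CA1, CA2 and CA3 neurons were detected in both regions, with no listed gene at 0 in every library. In bulk tissue, fewer cells of a type and less RNA per cell cannot be told apart.

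Of the 8 genes, 4 lie on chromosome 1 (GRCm38): Prox1 (ENSMUSG00000010175, chr1:190118035-190170714, minus strand), C1ql2 (ENSMUSG00000036907, chr1:120340582-120343174, plus strand), Dock10 (ENSMUSG00000038608, chr1:80501073-80758527, minus strand) and Lct (ENSMUSG00000026354, chr1:128284756-128328318, minus strand). The others are Plk5 (ENSMUSG00000035486, chr10:80356459-80365489, plus strand), Trpc6 (ENSMUSG00000031997, chr9:8544142-8680741, plus strand), Dsp (ENSMUSG00000054889, chr13:38151294-38198577, plus strand) and Tdo2 (ENSMUSG00000028011, chr3:81957090-81976202, minus strand). The antisense gene Prox1os overlaps Prox1, at 2.51 to 7.30 CPM, and Gm32014 overlaps Trpc6 on the other strand, at 0.378 to 2.13 CPM. The strand setting of the counting is not given in the sources used here, so it is not known whether reads of these pairs were told apart. Promoters are shown for 4 genes on which the results turn: C1ql2 and Plk5, which differed most between the strain labels, Trpc6, which rose in VH after the cue, and Lct, which differed most between the regions. Each run is the 250 bases before the RefSeq start (GRCm38.p6), 5′ to 3′ on the gene's strand, with motif matches in capitals. They cover chr1:120340332-120340581 on the plus strand for C1ql2, chr10:80356209-80356458 on the plus strand for Plk5, chr9:8543892-8544141 on the plus strand for Trpc6, and chr1:128328319-128328568 on the minus strand for Lct.
C1ql2: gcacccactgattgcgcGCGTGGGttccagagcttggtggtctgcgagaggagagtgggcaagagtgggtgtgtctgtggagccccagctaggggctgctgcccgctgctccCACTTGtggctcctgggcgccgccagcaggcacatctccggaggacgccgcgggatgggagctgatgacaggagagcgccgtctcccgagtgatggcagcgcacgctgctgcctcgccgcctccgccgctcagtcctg
Plk5: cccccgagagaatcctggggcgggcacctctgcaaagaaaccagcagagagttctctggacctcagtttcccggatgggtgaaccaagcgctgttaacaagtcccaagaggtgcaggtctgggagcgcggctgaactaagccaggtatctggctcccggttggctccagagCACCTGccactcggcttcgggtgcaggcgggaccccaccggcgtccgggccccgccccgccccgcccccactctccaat
Trpc6: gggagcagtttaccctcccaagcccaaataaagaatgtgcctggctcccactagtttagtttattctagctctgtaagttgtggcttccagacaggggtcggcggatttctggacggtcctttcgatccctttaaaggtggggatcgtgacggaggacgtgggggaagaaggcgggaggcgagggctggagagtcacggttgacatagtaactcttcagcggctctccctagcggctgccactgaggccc
Lct: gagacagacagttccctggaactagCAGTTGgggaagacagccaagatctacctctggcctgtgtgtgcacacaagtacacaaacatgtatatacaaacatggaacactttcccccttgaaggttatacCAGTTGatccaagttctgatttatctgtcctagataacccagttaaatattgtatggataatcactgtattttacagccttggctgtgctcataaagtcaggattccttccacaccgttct

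RefSeq held 10 promoters for the 8 genes, with a pair each for Prox1 and Dock10. They were searched on both strands for an E-box (CANNTG), a CRE core (TGACGT), an AP-1 motif (TGANTCA) and an Egr core (GCGTGGG), the last 3 being motifs of factors that neuronal activity induces or activates. E-boxes were in 6 of the 10, against 66.2% of 32851 mouse promoters of the same length. The Egr core was in 2, 1 each of C1ql2 and Dock10, against 4.3% of all. Neither the CRE core nor the AP-1 motif was in any of the 10, and these were in 6.47% and 6.75% of all promoters. In the runs above, the first capitals of C1ql2 are the Egr core and the second an E-box, those of Plk5 and Lct are E-boxes, and the Trpc6 window held none of the 4 motifs. The matches shown do not overlap.

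All 8 genes passed the filter on low counts in both regions. C1ql2 was the highest per kilobase of exon (kb) and Tdo2 the lowest, in DH and in VH. The length used is that of all annotated exons of a gene, which can exceed that of its main transcripts. For Dock10 it is 18267 bases, where its main transcripts Dock10-201 and Dock10-208 have 7198 and 6025. The rank of Dock10 would be higher by those lengths, and an order by transcript length was not computed. C1ql2 averaged 34.9 ± 8.55 CPM per kb in DH and 24.2 ± 5.53 in VH (SD, n = 36 each). Prox1 averaged 15 ± 2.46 CPM per kb in DH and 8.93 ± 1.99 in VH. By exon length both ranks held in every library: C1ql2 exceeded Prox1, and Prox1 the next gene, in 36 of 36 libraries of each region. The order below them depended on the region. Lct averaged 10.2 ± 1.84 CPM per kb in DH and 2.40 ± 1.08 in VH, and Plk5 9.48 ± 2.45 CPM per kb in DH and 4.38 ± 1.19 in VH. In DH these neighbours were not separated, with Lct above Plk5 in 23 of 36 libraries, and Dock10 was above Dsp in only 21 of 36. Dock10 averaged 6.30 ± 0.997 CPM per kb in DH and 3.96 ± 0.671 in VH, and Dsp 6.07 ± 1.34 CPM per kb in DH and 2.09 ± 0.870 in VH. In VH, Lct lay below Plk5, Dock10 and Trpc6, and Trpc6 exceeded Lct in 32 of 36 libraries. Trpc6 averaged 4.38 ± 0.959 CPM per kb in DH and 3.32 ± 0.673 in VH, and Tdo2 2.56 ± 0.391 CPM per kb in DH and 1.53 ± 0.326 in VH.

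**Figure D1:**
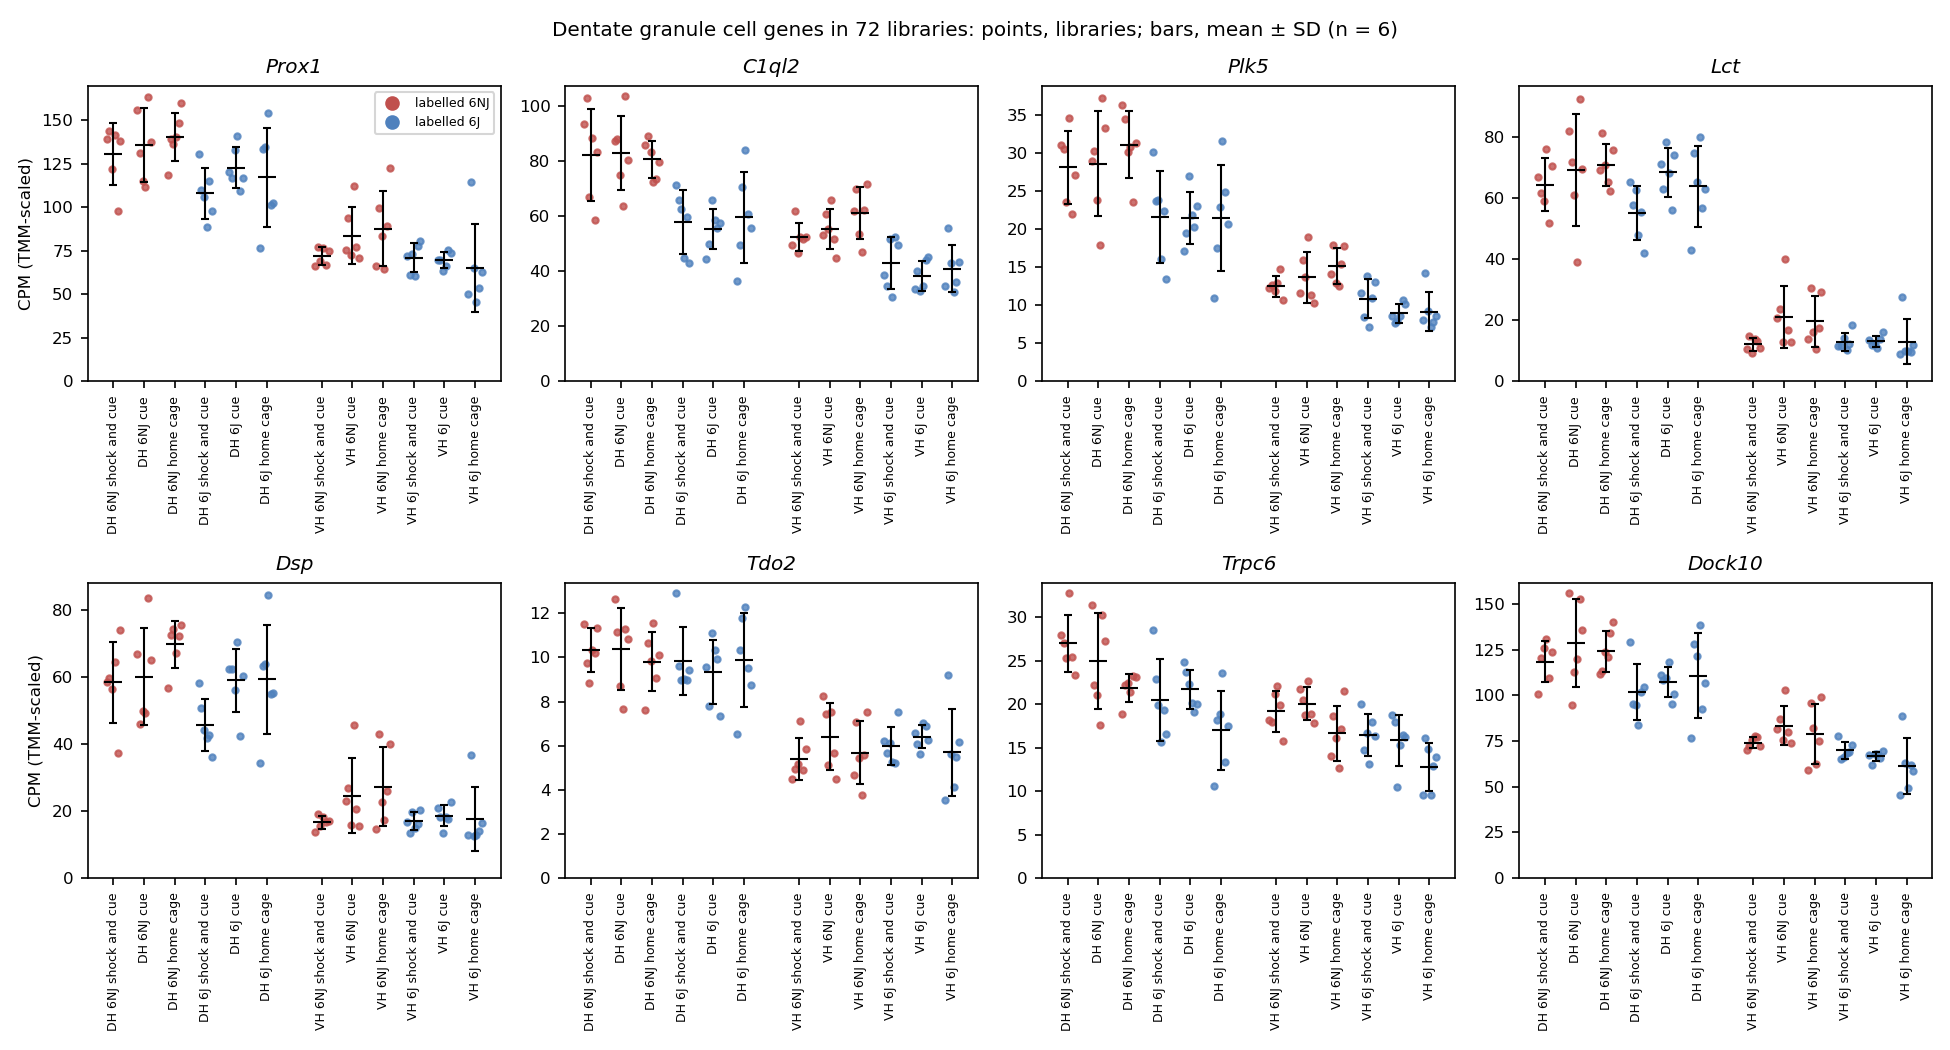
CPM of each of the 8 genes in all 72 libraries, by region, strain label and condition, with 1 point per library and the mean and SD of each group of 6. Lct and Dsp show the widest gap between DH and VH, and a few VH libraries lie far above their groups for both.

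A few codes, picked after the data were seen, stood apart. Code 40A, labelled 6NJ and cue, had nearly the same level in DH and VH of Lct (39.2 and 40.0 CPM), Prox1 (112 and 112 CPM), Plk5 (17.9 and 19.0 CPM) and Tdo2 (7.64 and 7.51 CPM). Its DH library also carried 8.96 CPM of Trhr and 19.9 CPM of Grp, genes of ventral dentate, where no other DH library exceeded 3.20 and 9.35 CPM. Other VH libraries were high in Lct: 41B and 42C, both labelled 6NJ and home cage, had 30.6 and 29.3 CPM, and 35B, labelled 6J and home cage, had 27.8 CPM. At the other end, code 36A, labelled 6J and home cage, had Dsp at 84.3 CPM in DH and 12.7 CPM in VH, and the highest ratio of DH to VH for all of the genes but Tdo2.

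Every one of the 8 genes was higher in DH than in VH. The comparison asks how the granule cell genes are distributed along the long axis of the hippocampus. Lct was 39.2 to 92.3 CPM (median 65.2) in DH and 8.98 to 40.0 CPM (median 13) in VH. The ranges met only in code 40A, since the other DH libraries had at least 42.0 CPM and the other VH libraries at most 30.6 CPM. The difference in Lct was 2.12 ± 0.0931 (SE; adjusted p = 5.09e-29) in edgeR's quasi-likelihood test with Benjamini-Hochberg adjustment over all genes, as for every adjusted p of a gene here. Dsp was 34.2 to 84.3 CPM (median 59.1) in DH and 12.5 to 45.5 CPM (median 17.5) in VH, a difference of 1.55 ± 0.0934 (SE; adjusted p = 1.09e-22). Its ranges overlapped, but the DH library was above the VH library of its code in 36 of 36 codes.

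Plk5, the polo-like kinase, was next, at 10.9 to 37.3 CPM (median 23.8) in DH and 7.11 to 19.0 CPM (median 11.6) in VH, with 30 of 36 DH libraries above every VH library. Its difference was 1.12 ± 0.0750 (SE; adjusted p = 9.22e-21). Prox1 was 77.0 to 164 CPM (median 131) in DH and 45.6 to 122 CPM (median 72.4) in VH, a difference of 0.75 ± 0.0603 (SE; adjusted p = 2.90e-17). The transcription factor's ranges overlapped, with 19 DH libraries above every VH library. The remaining 4 differences were smaller: 0.74 ± 0.0641 (SE; adjusted p = 2.32e-16) for Tdo2, 0.67 ± 0.0489 (SE; adjusted p = 3.43e-19) for Dock10, 0.52 ± 0.0604 (SE; adjusted p = 1.94e-11) for C1ql2 and 0.40 ± 0.0593 (SE; adjusted p = 3.14e-08) for Trpc6. Within codes, DH exceeded VH in 36 of 36 for Tdo2 and Dock10, in 35 for Prox1, Lct, Plk5 and Trpc6, and in 33 for C1ql2. The median ratio of DH to VH within a code was 4.86 for Lct and 1.30 for Trpc6, the ends of the range. Without code 40A all 8 were still higher in DH, Lct by 2.18 and Trpc6 by 0.41.

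The count of 8 of 8 stands against a background in which 63.6% of 20255 tested genes were called, 32.7% higher in DH. The median difference of the 8 genes was 0.75, against 0.0044 over all tested genes. This contrast is a description, since the 8 genes were chosen with earlier results of these data known. Of 15 other genes of dentate granule cells, 13 were higher in DH, among them Bcl11b (0.59) and Fam163b (1.02), and 1, Calb1, was lower (-0.15). Genes that differ along the dentate axis itself were mostly lower in DH: 4 of 5 passed in that direction, among them Trhr, a receptor for thyrotropin-releasing hormone (-3.16), and Grp, gastrin-releasing peptide (-2.36), whereas Spata13 was higher (1.06). Genes of other cells moved too. All 6 oligodendrocyte genes were higher in DH, with a summed level of 6027 to 12456 CPM in DH and 3168 to 7962 CPM in VH. All 6 choroid plexus genes were also higher, at a sum of 40.3 to 8863 CPM in DH and 24.0 to 2345 CPM in VH, and their part in the result was not tested. Microglial genes were higher in 5 of 5, and pan-neuronal genes were higher in 1 and lower in 4 of 5.

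**Figure D2:**
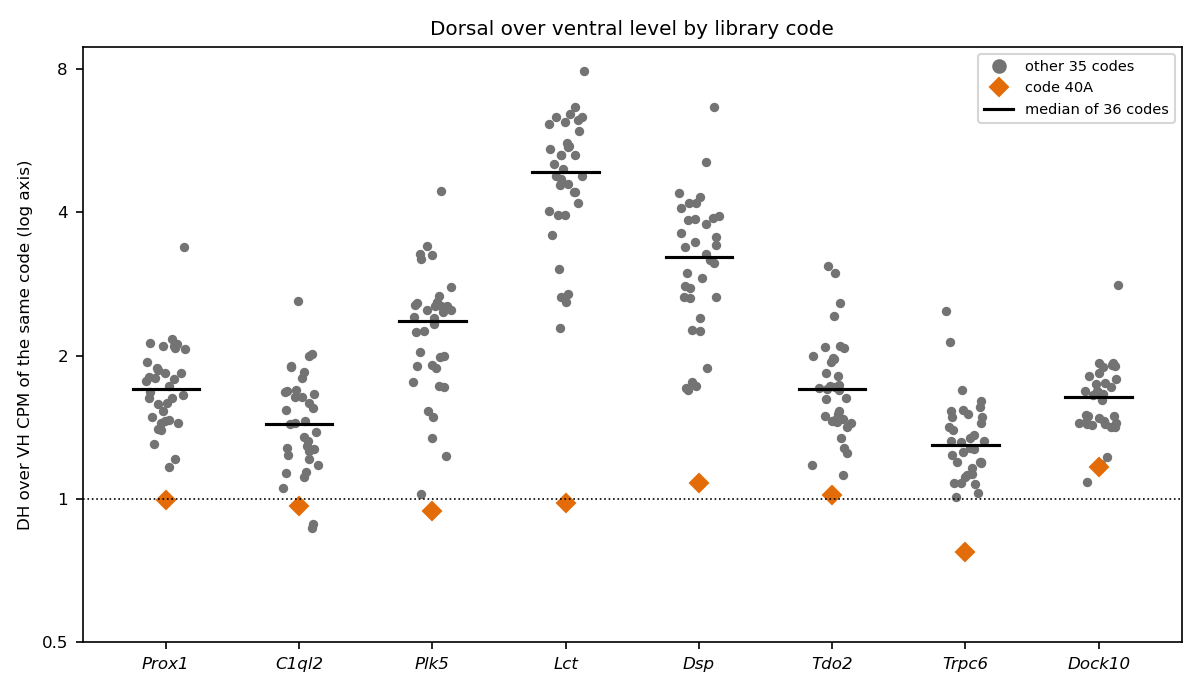
Ratio of DH CPM to VH CPM of each gene within each of the 36 codes on a log axis, with 1 point per code, diamonds for code 40A and a line at the median. Lct has the highest median ratio, 4.86, and Trpc6 the lowest, 1.30, and the diamonds lie at the bottom of most genes.

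Within each strain label all 8 estimates were above 0. The difference in Lct was 1.99 in libraries labelled 6NJ and 2.25 in libraries labelled 6J, and that in Trpc6 was 0.40 and 0.39. By edgeR's interaction test 0 of the 8 were called as differing between the labels in their regional difference, the lowest adjusted p being 0.997, and 0 had an unadjusted p under 0.05. DESeq2 also called 0 of the 8. Among all genes 0.00494% were called, and 794 had an unadjusted p under 0.05. The 95% interval was -0.62 to 0.10 for Lct and -0.36 to 0.23 for Plk5.

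Libraries labelled 6NJ had higher levels of C1ql2, Plk5, Trpc6 and Dock10 than libraries labelled 6J, in DH and in VH. This comparison of the substrain labels averages the 3 conditions. In DH, 5 of the 8 genes were higher in 6NJ and 0 lower, where 14.7% of all genes were called, 8.06% higher. In VH, 4 of 8 were higher and 0 lower, against 9.92% of all genes called, 4.87% higher. The median over the 8 genes was 0.22 in DH and 0.33 in VH, against -0.0053 and -0.001 over all tested genes. The 8 genes were chosen with earlier results of these data known, so these contrasts with all genes are descriptions.

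C1ql2, the mossy fibre synapse organiser, was 58.5 to 104 CPM (median 83.3) in 6NJ and 36.4 to 84.2 CPM (median 58.1) in 6J in DH. In VH it was 44.7 to 71.6 CPM (median 53.3) in 6NJ and 30.7 to 55.8 CPM (median 39.4) in 6J. The ranges overlapped, but all 18 libraries labelled 6NJ were above the 6J median in each region, and 8 in DH and 7 in VH were above every 6J library. The difference was 0.51 ± 0.0907 (SE; adjusted p = 2.13e-04) in DH and 0.46 ± 0.0776 (SE; adjusted p = 1.20e-04) in VH. Plk5 was 17.9 to 37.3 CPM (median 30.4) in 6NJ and 10.9 to 31.6 CPM (median 22.2) in 6J in DH, and 10.2 to 19.0 CPM (median 12.9) in 6NJ and 7.11 to 14.2 CPM (median 8.62) in 6J in VH. Of the 18 libraries labelled 6NJ, 16 in DH and 18 in VH were above the 6J median. Its difference was 0.45 ± 0.113 (SE; adjusted p = 0.00731) in DH and 0.51 ± 0.0925 (SE; adjusted p = 3.14e-04) in VH.

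The channel Trpc6 was 17.6 to 32.9 CPM (median 23.4) in 6NJ and 10.6 to 28.5 CPM (median 19.6) in 6J in DH, and 12.6 to 22.7 CPM (median 18.7) in 6NJ and 9.52 to 20.1 CPM (median 15.7) in 6J in VH. The ranges overlapped, with 16 and 15 of the 18 libraries labelled 6NJ above the 6J median in DH and VH. The difference was 0.32 ± 0.0867 (SE; adjusted p = 0.0103) in DH and 0.31 ± 0.0783 (SE; adjusted p = 0.00877) in VH. Dock10 was 94.4 to 156 CPM (median 122) in 6NJ and 76.4 to 138 CPM (median 105) in 6J in DH, and 58.9 to 103 CPM (median 76.2) in 6NJ and 45.3 to 88.7 CPM (median 66.7) in 6J in VH. In each region 16 of the 18 libraries labelled 6NJ were above the 6J median, and the difference was 0.22 ± 0.0679 (SE; adjusted p = 0.0276) in DH and 0.26 ± 0.0677 (SE; adjusted p = 0.0121) in VH. Prox1 was 97.9 to 164 CPM (median 139) in 6NJ and 77.0 to 154 CPM (median 116) in 6J in DH, where 15 of 18 libraries labelled 6NJ were above the 6J median and the difference was 0.23 ± 0.0723 (SE; adjusted p = 0.0301). In VH the Prox1 difference had the same size but missed the threshold in edgeR, at 0.23 ± 0.0949 (SE; adjusted p = 0.116). Only limma-voom among the other settings called it there (adjusted p = 0.0475). The DH calls of Dock10 and Prox1 were lost without the filter on low counts (adjusted p = 0.0577 and 0.0608) and without library 36B (0.0504 and 0.0520), and that of Prox1 also without 40B (0.0537). Each of the 2 genes was called under only 5 of 8 other settings in DH, with adjusted p up to 0.0838 for Dock10 and 0.121 for Prox1.

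The other 3 genes did not pass in either region. Dsp differed by 0.21 ± 0.0974 (SE; adjusted p = 0.158) in DH and 0.34 ± 0.159 (SE; adjusted p = 0.183) in VH, and Lct by 0.13 ± 0.0858 (SE; adjusted p = 0.326) in DH and 0.39 ± 0.165 (SE; adjusted p = 0.134) in VH. The VH difference of Lct had a wide interval, 0.06 to 0.73. One VH library, 35B of the 6J home cage group, was far above the rest of its group for Prox1, Lct, Plk5 and Dsp. Without it, Prox1 (0.31), Lct (0.51) and Dsp (0.46) also passed in VH, which made 7 of 8. Tdo2 differed by 0.07 ± 0.0751 in DH and -0.05 ± 0.101 in VH (SE), with 95% intervals of -0.08 to 0.23 and -0.26 to 0.15.

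**Figure D3:**
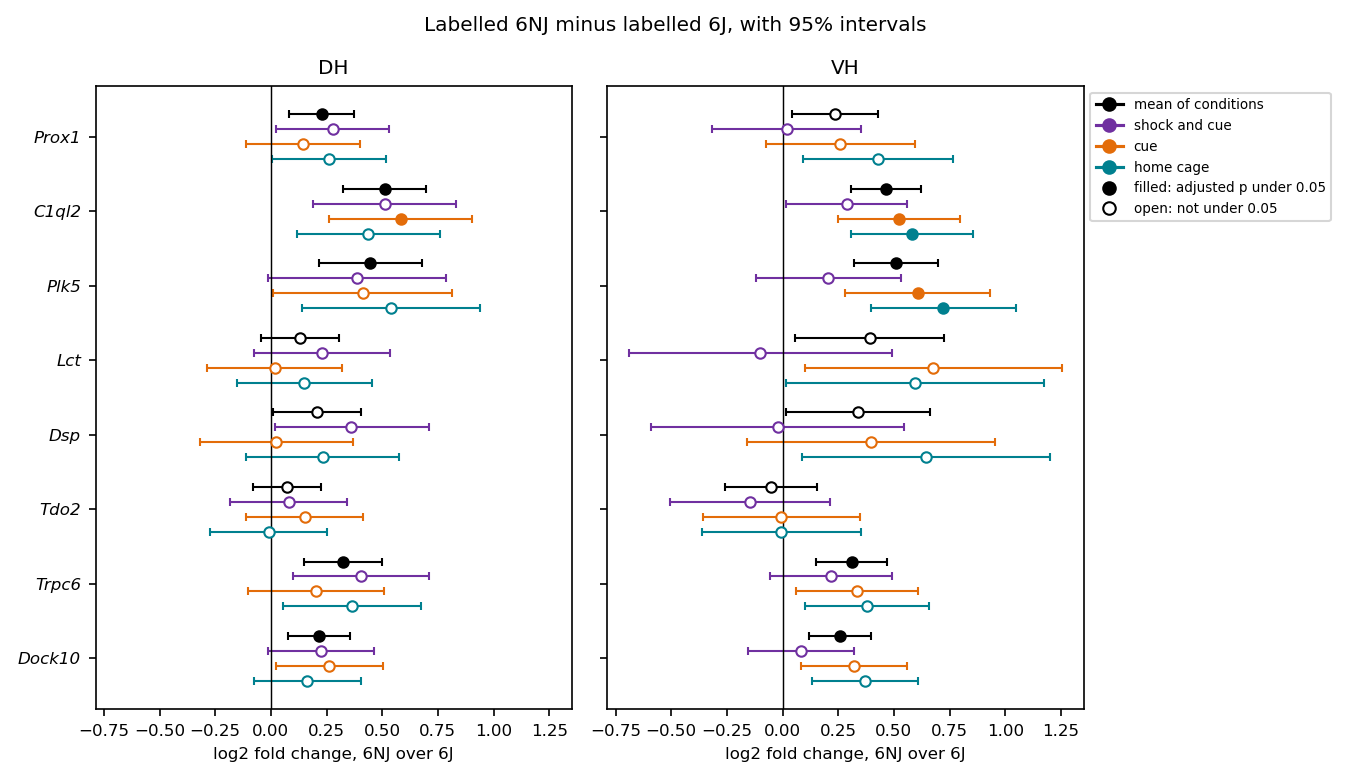
Log2 fold change of each gene, libraries labelled 6NJ minus libraries labelled 6J, for the mean of the conditions and for each condition, in DH and VH, with 95% intervals and filled points where adjusted p is under 0.05. The mean differences of C1ql2 and Plk5 lie between 0.45 and 0.51 in both regions, and those of Tdo2 near 0.

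Other granule cell genes moved with them. Of the list of 15, 7 were higher and 1 lower in 6NJ in DH, and 6 higher and 1 lower in VH, where 14.7% of all genes were called in DH and 9.92% in VH. Maml2, a Notch coactivator, differed by 0.24 in DH and 0.27 in VH, and Stxbp6, a syntaxin-binding protein, by 0.31 and 0.31. Calb1, the calcium buffer calbindin, was the lower one in both regions (-0.13 and -0.14). Of 5 genes of immature granule neurons, 2 were higher in DH, Igfbpl1 (0.48) and Sox11 (0.16), and 1 in VH, Igfbpl1 (0.54). All 6 oligodendrocyte genes were also higher in 6NJ in DH, at a sum of 7306 to 12456 CPM in 6NJ and 6027 to 10289 CPM in 6J. In VH 1 of them, Opalin (0.41), passed, and the sums were 4305 to 7341 CPM in 6NJ and 3168 to 7962 CPM in 6J. Their part in the strain differences was not tested. Other lists moved as well, mostly downward in DH. Of 9 genes of CA2 and CA3 neurons in DH, Bok was higher (0.55) and Map3k15 (-0.44) and Cdh24 (-0.26) lower, and in VH Bok alone passed (0.51). Lower in DH were also 2 of 5 astrocyte genes, Gja1 (-0.12) and Aldh1l1 (-0.10), 2 of 5 neocortical genes, Cux2 (-0.29) and Rorb (-0.21), and 1 each of 5 thalamic genes (Rora, -0.17), 4 mossy cell genes (Csf2rb2, -0.28) and 6 interneuron genes (Vip, -0.32). In VH, Gja1 (-0.11), Rorb (-0.21) and Vip (-0.20) were lower, and the astrocyte gene Gfap (0.15) and the interneuron gene Adarb2 (0.17) higher. Of the pan-neuronal genes, Rbfox3 was higher and Map2 lower in both regions. In either region edgeR called 0 of 7 CA1 genes, 0 of 5 microglial genes and 0 of 6 choroid plexus genes, and no other tool was run on these lists. Unadjusted p was under 0.05 for 1, 2 and 0 of them in DH and for 1, 1 and 0 in VH. Among all genes tested it was so for 5554 of 19647 in DH and 4721 of 19597 in VH. Lcn2, an acute-phase gene, was 3.95 to 20.5 CPM in both libraries of 6 codes, all labelled 6J, and at most 0.695 CPM elsewhere. Without those 6 codes C1ql2 alone passed in DH, by 0.40 (adjusted p = 0.0119), and Plk5 gave 0.33 (adjusted p = 0.115).

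Within single conditions, with 6 libraries a group, C1ql2 and Plk5 alone passed. After the cue in DH, C1ql2 was 63.8 to 104 CPM (median 83.8) in 6NJ and 44.4 to 65.8 CPM (median 56.6) in 6J, a difference of 0.58 ± 0.157 (SE; adjusted p = 0.0372), and was the only 1 of the 8 called, where 2.72% of genes were. That call was lost without the filter (adjusted p = 0.0771) and without the Lcn2 codes (0.611). After the cue in VH it was 44.7 to 65.9 CPM (median 54.3) in 6NJ and 32.7 to 45.1 CPM (median 37.5) in 6J, a difference of 0.52 ± 0.135 (SE; adjusted p = 0.0357). Plk5, at 10.2 to 19.0 CPM (median 12.7) in 6NJ and 7.62 to 10.7 CPM (median 8.60) in 6J, passed there too, by 0.61 ± 0.161 (SE; adjusted p = 0.0417), with 1.76% of all genes called. In all 3 the groups overlapped narrowly, the lowest library labelled 6NJ lying just under the highest labelled 6J. Both VH calls after the cue were lost without code 40A, at adjusted p = 0.112 for C1ql2 and 0.151 for Plk5. In the home cage in VH, C1ql2 was 47.0 to 71.6 CPM (median 62.2) in 6NJ and 32.4 to 55.8 CPM (median 39.6) in 6J and Plk5 was 12.5 to 18.0 CPM (median 14.8) in 6NJ and 7.11 to 14.2 CPM (median 8.38) in 6J. In both genes the groups overlapped only through the 6J library 35B, and the differences were 0.58 ± 0.134 (SE; adjusted p = 0.0195) and 0.72 ± 0.160 (SE; adjusted p = 0.0136), with 1.35% of genes called. Fitted on those 12 libraries alone, neither passed (adjusted p = 0.0989 and 0.0679).

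No gene of the 8 passed edgeR's test in the DH home cage libraries, where 0.931% of all genes were called. Of the 8, 4 had an unadjusted p under 0.05 there, as did 2224 of all 19647 genes tested, and DESeq2 and limma-voom called 0 of the 8. After shock and cue 0 passed in DH (2.14% of all genes) and 0 in VH (0.771% of all genes). Unadjusted p was under 0.05 for 4 of the 8 in DH and 1 in VH. Among all genes tested it was so for 3311 of 19647 in DH and 1943 of 19597 in VH. DESeq2 and limma-voom each called C1ql2 alone of the 8 in DH and none in VH. The estimates for C1ql2 after shock and cue were 0.51 ± 0.157 (SE; adjusted p = 0.0828) in DH and 0.29 ± 0.134 (SE; adjusted p = 0.474) in VH.

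Trpc6 rose in VH after the cue, with or without shock, and was the 1 gene of the 8 that edgeR called between conditions. That share is smaller than the share of all genes called in VH, and a missed call in the other 7 does not show that they did not change. These comparisons ask what the session did to the genes 30 min later, averaged over the strain labels, and both share the home cage libraries. In VH, Trpc6 was 13.1 to 22.1 CPM (median 17.9) after shock and cue, 10.4 to 22.7 CPM (median 18.3) after the cue and 9.52 to 21.5 CPM (median 14.4) in home cage libraries. The groups overlapped, with 11 of 12 libraries after shock and cue and 11 of 12 after the cue above the home cage median. The difference from home cage was 0.27 ± 0.0962 (SE; adjusted p = 0.0404) after shock and cue, where 20.7% of all genes were called, 9.84% higher. After the cue it was 0.29 ± 0.0961 (SE; adjusted p = 0.0216), where 31.5% were called, 16.1% higher. The first of these missed the threshold when any 1 of 11 libraries was left out (31A, 33B, 35A, 36A, 37C, 39A, 39B, 41A, 41C, 42A or 42B), with adjusted p up to 0.0788. The second was lost without the 6 codes high in Lcn2 (adjusted p = 0.317), and both were lost without the filter on low counts (adjusted p = 0.0970 and 0.0552).

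In DH, Trpc6 was 15.6 to 32.9 CPM (median 24.4) after shock and cue, 17.6 to 31.4 CPM (median 22.2) after the cue and 10.6 to 23.6 CPM (median 20.1) in home cage libraries. Of 12 libraries each, 6 after shock and cue and 5 after the cue were above every home cage library. The estimates were close to those in VH but did not pass: 0.29 ± 0.106 (SE; adjusted p = 0.0831) after shock and cue, and 0.27 ± 0.106 (SE; adjusted p = 0.0854) after the cue. DESeq2 and limma-voom each called Trpc6 in both DH comparisons, and edgeR called it in both without the home cage library 36A (adjusted p = 0.0300 after shock and cue and 0.0300 after the cue). By edgeR 0 of the 8 passed in DH, where 10% of all genes were called after shock and cue and 13% after the cue. Unadjusted p was under 0.05 for 2 genes after shock and cue, Trpc6 and Dsp, and for 1 after the cue. Among all 19647 genes tested in DH, 4721 after shock and cue and 5469 after the cue had an unadjusted p under 0.05.

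Dsp was 36.0 to 73.8 CPM (median 53.6) in DH after shock and cue, 42.4 to 83.6 CPM (median 61.3) after the cue and 34.2 to 84.3 CPM (median 65.4) in home cage libraries. Of the 12 libraries after shock and cue, 1 was above the home cage median, and the difference of -0.31 ± 0.119 (SE; adjusted p = 0.0945) did not pass. It passed without the home cage library 35A, the lowest DH library for each of the 8 genes but Lct, at -0.37 (adjusted p = 0.0297). Of 9 other settings, 1 also called Dsp (adjusted p = 0.0456). The VH estimates for Dsp and Lct after shock and cue were -0.39 ± 0.195 (SE; adjusted p = 0.152) and -0.36 ± 0.202 (SE; adjusted p = 0.210), with 95% intervals of -0.79 to 0.005 and -0.77 to 0.05. Prox1, C1ql2, Plk5, Tdo2 and Dock10 had estimates between -0.12 and 0.17 in both comparisons and both regions.

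**Figure D4:**
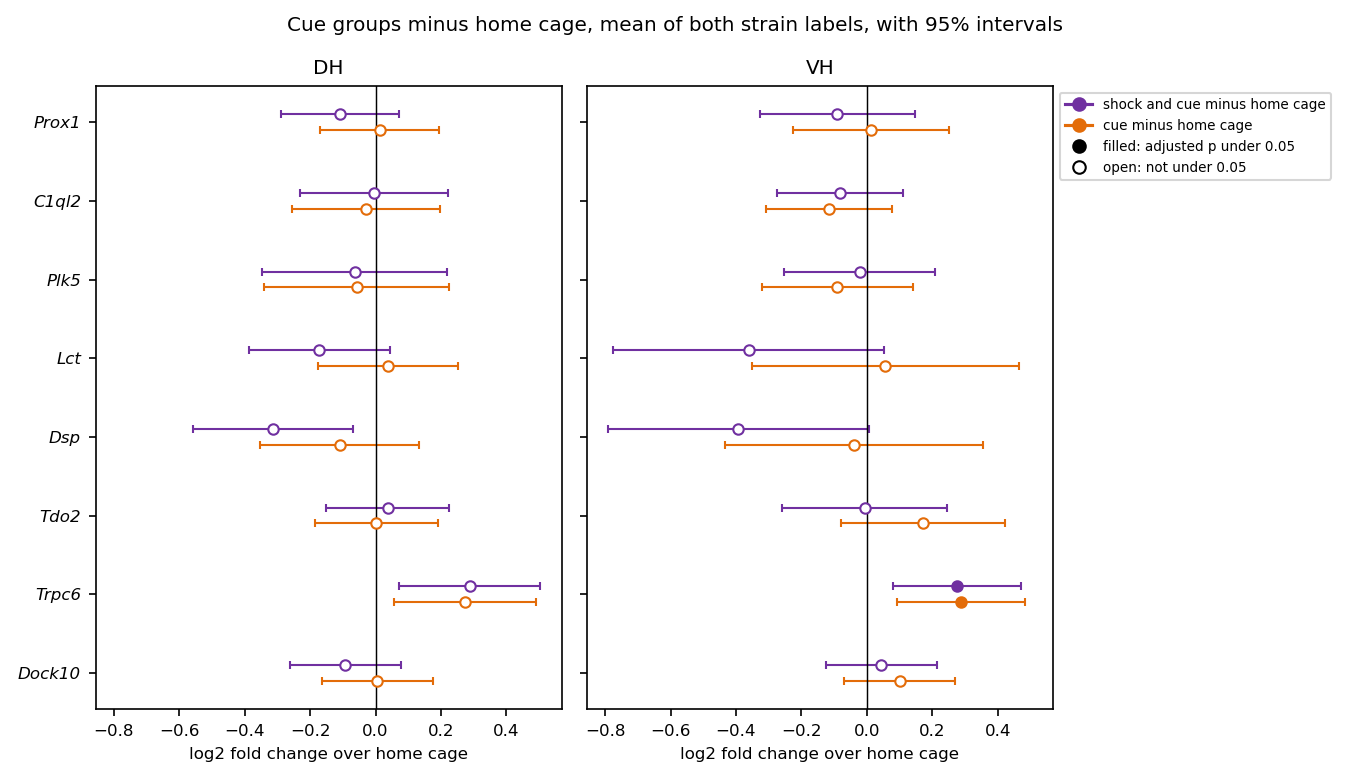
Log2 fold change of each gene over home cage after shock and cue and after the cue, averaged over the strain labels, in DH and VH, with 95% intervals and filled points where adjusted p is under 0.05. Trpc6 alone has estimates above 0.2 in both regions, and its 2 VH estimates are the only ones past the threshold.

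Shock and cue against cue alone gave 0 calls among the 8 genes, and 0 among all genes (0%), in either region by edgeR. Unadjusted p was under 0.05 for 0 of the 8 in DH and for 1 in VH, which was Lct (-0.42, 95% interval -0.83 to -0.0045), and DESeq2 and limma-voom called 0 of the 8. Over all genes, 1997 in DH and 1426 in VH had an unadjusted p under 0.05. For Trpc6 the difference was 0.01 in DH, with a 95% interval of -0.20 to 0.23, and -0.01 in VH, with -0.21 to 0.18.

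Whether the response differed between the strain labels was asked with edgeR's interaction tests, which called 0 of the 8 genes and 0 of all genes (0%) in either region, and DESeq2 and limma-voom called 0 of the 8. Over all genes, 860 in DH and 817 in VH had an unadjusted p under 0.05 for shock and cue, and 621 and 539 for the cue. Of the 8, 0 did so in DH for either response, and 0 in VH for the cue. In VH all 8 estimates for shock and cue were negative, between -0.70 and -0.14, the estimated change over home cage being lower in 6NJ than in 6J, and none passed. Of the 8, 1 had an unadjusted p under 0.05. This was Plk5 at -0.52 (95% interval -0.98 to -0.06, adjusted p = 0.998). Plk5 after shock and cue in VH was 10.6 to 14.8 CPM (median 12.4) in 6NJ and 7.15 to 13.9 CPM (median 11.3) in 6J, so the groups overlapped. The home cage groups that enter the interaction hold the high VH libraries 41B and 42C in 6NJ and 35B in 6J.

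Of the 15 other granule cell genes, 3 passed in VH after shock and cue and 3 after the cue, where 20.7% and 31.5% of all genes did. In DH 1 passed after shock and cue and 2 after the cue, where 10% and 13% of all genes did, so these shares are near or under those of genes in general. The 3 that fell in VH after shock and cue were Smad3, a transducer of TGF-beta signals (-0.20), Gabrd, the delta subunit of the GABA-A receptor (-0.27), and Fam163b (-0.28). After the cue in VH, Smad3 (-0.16) and Gabrd (-0.20) fell and Zbtb20, a transcription factor of hippocampal neurons, rose (0.31). In DH, Calb1 (0.16) and Zbtb20 (0.19) rose after the cue, and Bcl11b fell after shock and cue (-0.16). Of 5 genes of immature granule neurons, 1 or 2 rose in each comparison, and Sox11 rose in all 4 comparisons, by 0.30 in DH and 0.23 in VH after shock and cue, and by 0.27 and 0.21 after the cue. Beside the Trpc6 result in VH, 3 of 5 microglial genes rose after the cue, and the summed microglial level was 152 to 259 CPM after the cue and 122 to 213 CPM in home cage libraries. Its part in the Trpc6 difference was not tested.

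Libraries of the same group that were high in one of the genes were high in the others. Likeness was measured as Pearson's correlation of the deviations of log2 CPM from the group mean over the 36 libraries of a region. It is a description, since the genes share libraries, scaling and dissection. The 28 pairs had r between 0.411 and 0.920 in DH (median 0.711) and between 0.543 and 0.935 in VH (median 0.763). C1ql2 and Plk5, the pair that differed most between the strain labels, were the most alike in DH (r = 0.920), and Lct and Dsp, the pair with the widest regional difference, were the most alike in VH (r = 0.935). Dock10 was least like C1ql2 and Plk5 in DH (r = 0.415 and 0.411).

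**Figure D5:**
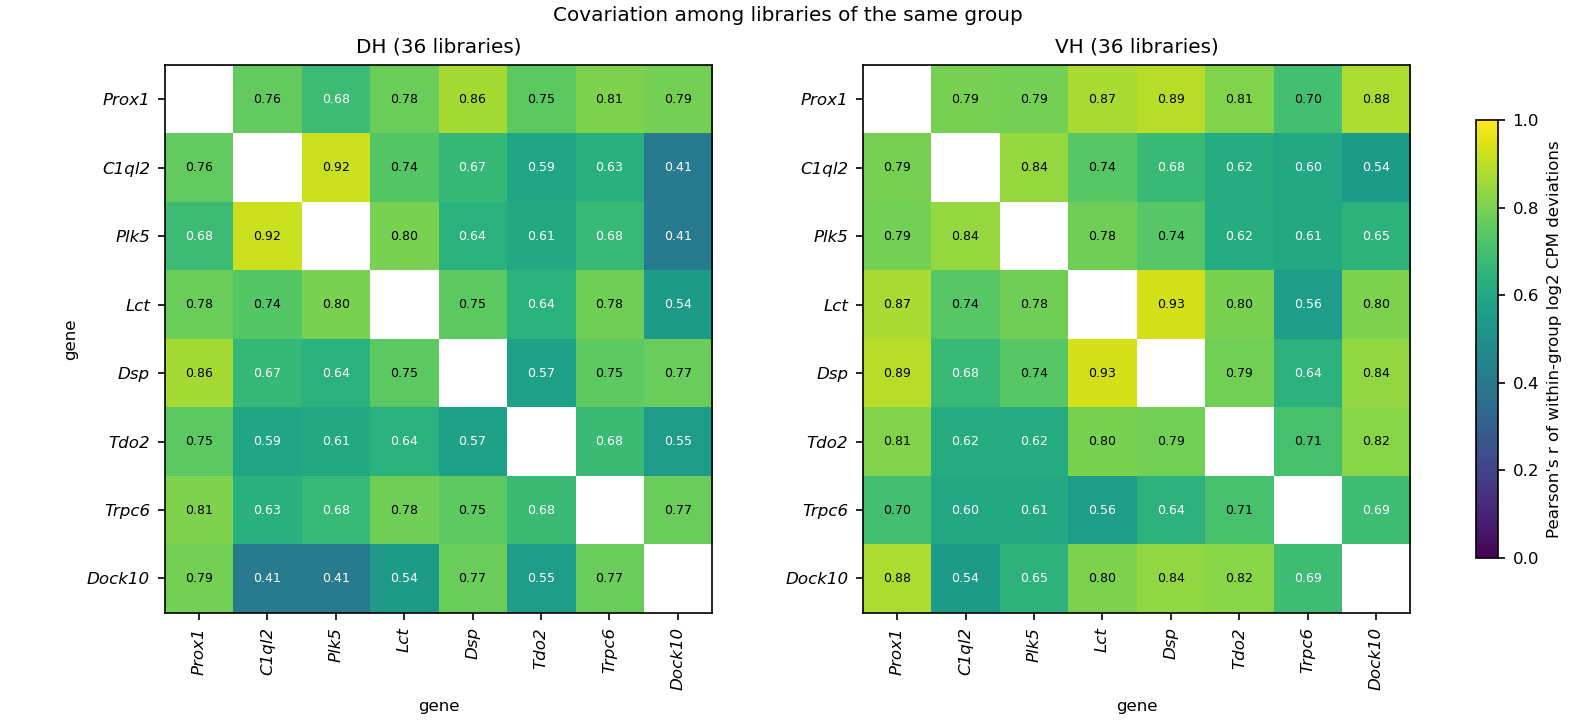
Pearson's r between the 8 genes over 36 DH and 36 VH libraries, computed on deviations of log2 CPM from the mean of each group. All pairs are positive, the lowest being Dock10 with Plk5 in DH (0.411) and the highest Lct with Dsp in VH (0.935).

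Among 19270 genes tested in both regions, those most like the mean of the 8 were Sema5a, a semaphorin (mean r of DH and VH 0.920), Plekha2, a phosphoinositide-binding adaptor (0.914), Dgkh, a diacylglycerol kinase (0.910), Stxbp6 (0.902) and Mcm6, a subunit of the replicative helicase (0.898). The median over all those genes was -0.0132. In GENCODE vM21 Mcm6 lies next to Lct, at chr1:128331590-128359664. For single genes, the most alike were Sema5a for Prox1 (0.926), Epha7, an ephrin receptor, for Lct (0.904), Npnt, the matrix protein nephronectin, for Dsp (0.901), Stxbp6 for Tdo2 (0.857), Rfx3, a transcription factor, for Trpc6 (0.848) and Il1rap, a coreceptor for interleukin 1, for Dock10 (0.865). C1ql2 and Plk5 were each most like the other (0.881), and Fam163b came next for both (0.818 and 0.820). The 15 other granule cell genes had a median of 0.719 with the mean of the 8, and the 6 oligodendrocyte genes had -0.0832.

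No relation was detected between the DH and VH deviations of a code. Across 36 codes, Pearson's r between the DH and VH deviations was -0.23 for Plk5 and 0.27 for Dock10, the ends of the range over the 8 genes, and Spearman's rho was -0.22 to 0.32. In permutation tests (two-sided, 100000 resamples, 8 relations) p was at least 0.104 for r and 0.0605 for rho, and at least 0.462 and 0.417 after Benjamini-Hochberg adjustment. Without the 2 codes farthest from the median in DH, r was -0.26 to 0.31.

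The deposited estimated counts held 31 transcripts of the 8 genes. Prox1 came almost wholly from Prox1-202 (99.4% ± 0.236 of the gene's transcript CPM in DH, SD, n = 36). Trpc6-201 made up 72.1% ± 6.70 of Trpc6 in DH and 69.4% ± 6.31 in VH. Dock10-201 made up 48.2% ± 4.47 of Dock10 in DH and 47.0% ± 4.63 in VH. Between the regions 22 of 26 tested transcripts passed, all higher in DH, against 26.9% of all transcripts. Between the strain labels 5 of 26 passed in DH (2.9% of all) and 4 of 25 in VH (2.18% of all), every one higher in 6NJ. C1ql2-201, the single transcript of C1ql2 in the table, differed by 0.52 (adjusted p = 5.12e-04) in DH and 0.46 (adjusted p = 4.02e-04) in VH.

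The protein-coding Plk5-202 made up 79.2% ± 8.31 of Plk5 in DH and 78.5% ± 17.8 in VH. It passed in DH, by 0.54 (adjusted p = 0.00824), and missed in VH, at 0.38 (adjusted p = 0.366). The VH call was that of Plk5-204, which the annotation gives as a retained intron. It averaged 1.18 ± 0.350 CPM in 6NJ and 0.790 ± 0.264 CPM in 6J in VH (SD, n = 18 each), a difference of 0.55 (adjusted p = 0.0344). Trpc6-201 passed in both regions, by 0.33 (adjusted p = 0.0273) in DH and 0.32 (adjusted p = 0.0442) in VH. Dock10 passed in both through Dock10-206, also a retained intron, which made up 0.444% ± 0.150 of Dock10 in DH and 0.547% ± 0.217 in VH. It averaged 0.592 ± 0.158 CPM in 6NJ and 0.367 ± 0.0865 CPM in 6J in DH (SD, n = 18 each), and differed by 0.69 (adjusted p = 0.00157) in DH and 0.63 (adjusted p = 0.0316) in VH. Among the protein-coding Dock10 transcripts, Dock10-208 passed in DH, by 0.27 (adjusted p = 0.0150), and missed in VH, at 0.18 (adjusted p = 0.269). The largest, Dock10-201, missed in both, at 0.25 (adjusted p = 0.164) in DH and 0.34 (adjusted p = 0.0637) in VH. Prox1-202 also missed in both, at 0.24 (adjusted p = 0.0531) in DH and 0.23 (adjusted p = 0.222) in VH.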

How the data were processed

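Messenger RNA of 72 hippocampal libraries was sequenced, and the deposited tables hold whole-number read counts for 55401 genes and estimated counts (expected counts) for 119414 transcripts, neither of them normalized by the authors. Per the submitters' processing notes, HISAT2, featureCounts, kallisto, FastQC, DESeq2 and the build GRCm38 were used. No source used here gives versions or how the counting treated strand.

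The test was that of edgeR 4.0.16 (R 4.3.3) with TMM, filterByExpr by group, robust glmQLFit and the quasi-likelihood F-test with 1 mean per group, Benjamini-Hochberg adjustment over all tested genes and a threshold of 0.05. The fits held the 36 libraries of a region (19647 genes tested in DH, 19597 in VH) or all 72 (20255 genes). Estimated counts were rounded to whole numbers. The edgeR fit was also run on simulated counts with known fold changes. Every simulated gene had the same dispersion and varied independently, unlike the genes here, so that run does not test the calls above. The SE is the log2 fold change divided by the square root of F, and a prior count of 2 entered log2 CPM. Groups and codes came from the labels, and all sample columns were matched by name.

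The 8 genes and the other gene lists were chosen with earlier results of these data known. All 8 genes are named throughout. Of other lists, up to 4 genes past the threshold with the smallest p are named per comparison, and for likeness the 5 genes most like the mean of the 8 and the nearest for each gene. Lcn2, Gabra2 and, between regions and labels, Calb1 were chosen after their values were seen. Symbols were matched to GENCODE vM21 and promoters to RefSeq. Within groups, 180 library pairs differed by more than sampling noise (lowest chi-square per degree of freedom 4.51). Alternatives were DESeq2 1.42.0, limma 3.58.1 (voom, code number as random effect), other size factors, other filters, the replicate block, fits of only the groups compared, each library left out in turn and, chosen after seeing the data, omission of code 40A or of 6 codes high in Lcn2 and a covariate of Trhr and Grp.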

Additional observations from a re-analysis of the deposited data

Results flagged for a closer look

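In 5 of 96 sets of 6 libraries (8 genes in 12 groups) 1 library lay farther from the rest than Dixon's 95% critical value for 6 libraries allows, and chance gives about 1 in 20. In 4 of the 5 it was VH library 35B, labelled 6J and home cage. It had Prox1 at 115 CPM, where the other 5 had 45.6 to 64.9 CPM. Its Lct level was 27.8 CPM, where the other 5 had 8.98 to 12 CPM. Plk5 stood at 14.2 CPM, where the other 5 had 7.11 to 9.20 CPM, and Dsp at 36.7 CPM, where the other 5 had 12.5 to 16.3 CPM. The same library had 6.35 CPM of Trhr and 19.6 CPM of Grp, the lowest Grp level of the 36 VH libraries. The fifth was DH library 31A, labelled 6J and shock and cue, with Tdo2 at 12.9 CPM, where the other 5 had 8.97 to 9.62 CPM.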

How the results depend on the processing

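All 8 genes stayed higher in DH under every alternative run, the replicate block included (8 of 8; 21 transcripts under the block, 22 without it). Codes were not taken to pair the libraries in the main test, and the labels do not say whether a shared code means 1 mouse. The correlation of deviations within a code had a median of 0.111 and was over 0.1 in 21 of 36. Between different codes the median was -0.00437, and 250 of 1260 pairs were over 0.1. Of 36 DH libraries, 9 were most like the VH library of their own code. Libraries of 1 code were thus more alike than those of different codes, though weakly. No paired analysis was possible within a region because groups share no code. The number of the 8 called in DH between the labels was 5, but 3 without the low-count filter, 3 with the covariate and 1 without the Lcn2 codes. The genes lost without the filter and with the covariate were Prox1 and Dock10. In VH between the labels it was 4, but 5 with limma-voom. After the cue in DH it was 1, but 0 without the filter and 0 without the Lcn2 codes, and after shock and cue 0, but 1 with DESeq2 and 1 with limma-voom. In VH home cage it was 2, but 1 without the filter, 4 without the Lcn2 codes and 0 when only the groups compared were fitted. After the cue in VH it was 2, but 0 without the filter, without code 40A, without the Lcn2 codes and with the covariate. For the conditions in DH, 0 became 1 after the cue with DESeq2, limma-voom, the covariate and without code 40A, and 1 after shock and cue with DESeq2, limma-voom, the covariate and without the Lcn2 codes. After shock and cue the gene called was Trpc6 in 3 of these settings and Dsp in 1. In VH, 1 became 0 after the cue without the filter and without the Lcn2 codes, and 0 after shock and cue without the filter and with the covariate. Leaving out 1 library gave 3 to 5 (DH) and 4 to 7 (VH) between the labels, 0 to 1 and 1 to 1 after the cue, and 0 to 1 and 0 to 1 after shock and cue. In DH, Prox1 was lost between the labels without 36B or 40B and Dock10 without 36B. With 1 library left out, 16 of 48 estimates between labels or conditions changed sign at least once, each with adjusted p of at least 0.555 where it did. Under the other alternatives 24 values changed sign, all with adjusted p of at least 0.567. Without the Lcn2 codes: DH, strain label (Tdo2 -0.018), DH, cue (Prox1 -0.038, Lct -0.0080, Dock10 -0.060), VH, cue (Plk5 0.024, Dsp 0.0073), DH, shock and cue (Tdo2 -0.020), VH, shock and cue (Prox1 0.012, Plk5 0.062, Tdo2 0.040). With the covariate: DH, cue (C1ql2 0.015, Plk5 0.0091), VH, cue (Dsp 0.094), DH, shock and cue (Lct 0.027, C1ql2 0.10, Plk5 0.10), VH, shock and cue (Prox1 0.011, Plk5 0.063, Tdo2 0.10). Without code 40A: DH, cue (C1ql2 0.0027), VH, cue (Prox1 -0.038, Lct -0.086). With limma-voom: VH, cue (Dsp 0.0094), VH, shock and cue (Tdo2 0.025). The causes were not tested. The lowest count of any of the 8 genes in a library was 119.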
